A study of Mus musculus with 12 samples.

Results

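The comparison is how differently mouse cardiac fibroblasts of 2 ages responded to the reprogramming factors Mef2c, Gata4 and Tbx5. The quantity is the response in aged cells less the response in neonatal cells, where a response is the log2 ratio of MGT (the 3 factors) over LacZ (the control). It was computed for every gene of the table from 8 of the 12 libraries, and 11940 of the 16383 listed genes passed the filter on low counts and were tested. Every gene of the table was a member, whatever its values, and the comparison itself was chosen with earlier results of these data known.

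All cells were primary cardiac fibroblasts from wild-type (WT) mouse hearts, collected on day 3 after the vector. The LacZ neonatal and MGT neonatal groups came from pups of postnatal days 1 to 3 (P1-P3), and the LacZ aged and MGT aged groups from animals of 18 months. Each group had 2 libraries, and the labels do not say whether these were separate animals, cultures or repeats of 1 RNA, so the p-values measure only the spread between libraries. LacZ and MGT adult cells of 3 months entered the fit to share in the estimate of that spread. Sample titles carry the word MGT even for LacZ libraries, and the vector was read from the treatment field. The labels give neither the vector's promoter nor how many animals were pooled, and they name polyadenylated RNA beside a kit that removes ribosomal RNA. Cells of the 2 ages were prepared separately, and effects of age and of preparation cannot be told apart in what follows.

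Mef2c, Gata4 and Tbx5 are transcription factors of the developing heart, and supplied together they push fibroblasts toward an induced cardiomyocyte state. The cells switch on sarcomere and calcium cycling genes while matrix and other fibroblast genes are lowered, and the conversion is known to be less efficient in older cells. The study's title names Nr4a3, a nuclear receptor, and senescence as a barrier, and its design text asks why adult and aged fibroblasts are hard to convert. A response difference on the log2 scale compares ratios. A gene can therefore rise by a larger ratio in aged cells and still gain fewer transcripts there, and both scales are given below.

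The 8 libraries held 13879198 to 16339091 counts, and a principal component with 64.9% of their variance separated the ages while the next, with 20.7%, separated the vectors. Replicates of a group differed by more than counting error, by a chi-square statistic that was 2.31 times its degrees of freedom for LacZ neonatal and up to 7.75 times for MGT aged. In the adult groups, which share in the estimate of the spread, it was 22.2 times for LacZ and 3.10 times for MGT. All 21 genes of the cardiac fibroblast list were tested, with Col1a1, Col1a2, Fn1 and Vim among the abundant ones. Their summed FPKM (fragments per kilobase of exon, scaled to library size) was 4823 to 4824 in LacZ neonatal, 4130 to 4182 in MGT neonatal, 2734 to 2847 in LacZ aged and 2859 to 3083 in MGT aged. Lymphocyte and erythroid markers had no tested gene. Values given with ± are log2 estimates and their standard errors (SE) from the edgeR fit, and mean levels written as from 1 value to another run from LacZ to MGT. In bulk RNA, fewer cells of a type and less RNA per cell cannot be told apart.

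Aged and neonatal cells responded differently at a small share of genes, and mostly in 1 direction. Of 11940 tested genes 351 (2.94%) were called at an adjusted p below 0.05, of which 277 (2.32%) had a higher response in aged cells and 74 (0.62%) a lower one. At least 2-fold differences made up 152 of the higher (1.27% of all tested) and 14 of the lower (0.117%). At an unadjusted p below 0.05 there were 1813 genes (15.2%), and the median difference over all tested genes was 0.02. Responses over replicate pairs did not overlap between the ages for any of the 351 called genes, against 18.2% of all tested genes without overlap in the higher and 15.8% in the lower direction. The responses themselves were called for 2252 genes in aged cells (18.9%), of which 10.6% of all tested rose and 8.25% fell. In neonatal cells they were called for 1103 (9.24%), with 5.22% rising and 4.02% falling. Counts over gene lists below stand beside these shares of all tested genes.

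Leaving out 1 library at a time gave 193 and 202 calls without LacZ neonatal replicate 1 and 2, and 222 and 231 without LacZ aged replicate 1 and 2. It gave 282 and 264 without MGT neonatal replicate 1 and 2, and 309 and 186 without MGT aged replicate 1 and 2. Of the 351 genes 138 were called in all 8 of these fits, 126 higher and 12 lower, and all 351 kept their sign.

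**Figure D1:**
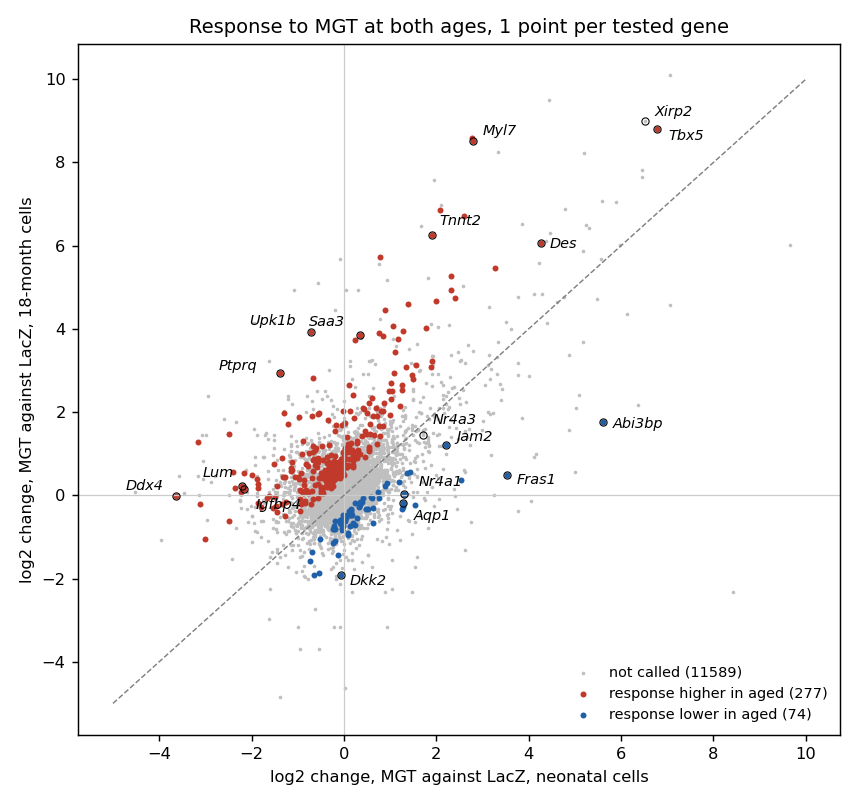
Each point is a tested gene, with the log2 change of MGT against LacZ in neonatal cells on the x axis and in 18-month cells on the y axis. Red points (277) and blue points (74) are genes called for the difference and lie above and below the dashed line of equal response, and genes with 0 counts in a group have fitted values that depend on the prior count.

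The 277 genes with a higher response in aged cells were of several kinds. With MGT 114 of them rose in aged cells with no call in neonatal cells, and 60 rose at both ages. A further 61 fell in neonatal cells with no call in aged cells, and 32 fell in neonatal and rose in aged cells. Another 4 fell at both ages and 6 had neither response called. Under LacZ, 223 of the 277 (80.5%) were called lower in aged than in neonatal cells, against 21.4% of all tested genes. Under MGT 129 were, against 18% of all tested genes. The gap between the ages was smaller under MGT than under LacZ for 212 of them (76.5%), against 6687 of the 11940 tested genes. On the linear scale the gain in CPM (counts scaled to library size) with MGT was larger in aged cells for 245 and smaller for 32. Over all 11940 tested genes it was larger for 6088 and smaller for 5852. Of the 74 genes with a lower response, 43 fell in aged cells with no call in neonatal cells and 19 rose in neonatal cells with no call in aged cells. Another 5 rose at both ages, 4 fell at both and 3 had neither call. Under LacZ 49 of the 74 were called higher in aged than in neonatal cells, against 19% of all tested genes. The LacZ libraries enter both the response and this gap, so these counts are a description. The gain in CPM was smaller in aged cells for 72.

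**Figure D2:**
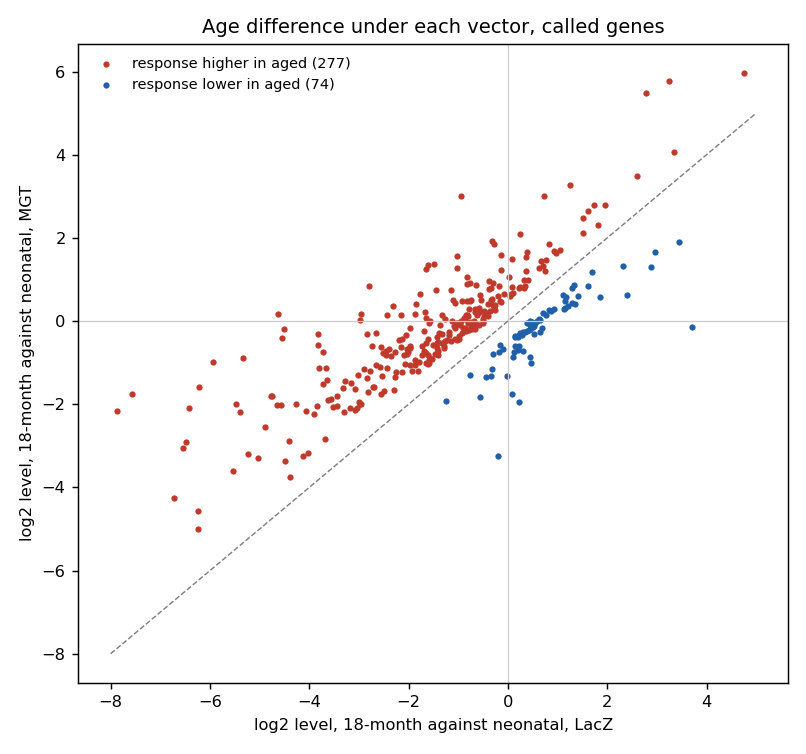
For the 351 called genes, the log2 level in 18-month against neonatal cells under LacZ is on the x axis and under MGT on the y axis, with the dashed line marking equal age differences. The vertical distance from that line is the response difference, and 223 of the 277 red points were called lower in aged cells under LacZ.

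The factor genes and the NR4A receptors come first, since the study delivered the former and names a receptor of the latter in its title. Tbx5, a T-box factor, responded by 6.78 ± 0.17 in neonatal and 8.81 ± 0.20 in aged cells on the log2 scale, a difference of 2.02 ± 0.38 (SE, adjusted p = 0.0041). Its MGT levels overlapped, at 218 and 269 CPM in neonatal and 244 and 299 in aged cells, and its LacZ levels did not, at 2.43 and 1.97 against 0.463 and 0.743. For Tbx5 the call was lost without LacZ aged replicate 1 (1.72 to 2.39 over the 8 fits), and with voom weights as well. Mef2c, a MADS-box factor, differed by 0.66 ± 0.19 (SE, adjusted p = 0.066) and Gata4, a zinc finger factor, by 0.23 ± 0.12 (SE, adjusted p = 0.41), neither of them called. These counts do not separate vector from endogenous transcripts.

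Nr4a1, an orphan nuclear receptor that many cells induce within an hour of a stimulus, was the 1 of 3 NR4A genes whose response differed. It (ENSMUSG00000023034, chromosome 15, 101254269 to 101274795 on mm10) measured 46.2 and 50.3 CPM in the LacZ neonatal libraries, 138 and 99.5 in MGT neonatal, 156 and 191 in LacZ aged and 162 and 195 in MGT aged. MGT raised it from the lowest level of the 4 groups in neonatal cells, whereas in aged cells the LacZ and MGT libraries overlapped at a level above every neonatal library. Its response was 1.30 ± 0.14 (SE, adjusted p = 2.7e-06) in neonatal and 0.04 ± 0.13 (SE, adjusted p = 0.87) in aged cells, a difference of -1.26 ± 0.20 (SE, adjusted p = 0.00067). For Nr4a1 the call held when any 1 library was left out. Under LacZ it lay 1.85 ± 0.14 (SE, adjusted p = 4.4e-09) log2 units higher in aged than in neonatal cells, and under MGT 0.59 ± 0.14 (SE, adjusted p = 0.0022). Its relative Nr4a3 measured 2.72 and 2.83 CPM in the LacZ neonatal libraries, 10.1 and 8.14 in MGT neonatal, 8.44 and 11.8 in LacZ aged and 22.7 and 32.2 in MGT aged. Both MGT aged libraries lay above all others, and MGT neonatal overlapped LacZ aged. Its response difference was -0.27 ± 0.30 (SE, adjusted p = 0.73), not called. Nr4a2, the third member, differed by -0.33 ± 0.39 (SE, adjusted p = 0.75), also not called. Of 17 tested immediate early genes, which serum and stress switch on together with Nr4a1, none was called in the edgeR fit, and their median difference was -0.04 (0.02 over all tested genes). The fits without 1 library or with another setting called at most 1.

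Start-site regions of 5 of the genes are shown because the responses reported here are transcript levels that such regions help to set. They are Tnnt2 and Saa3, with large higher responses in aged cells, Aqp1 and Nr4a1, with lower ones, and Nr4a3 beside Nr4a1. Each runs 5′ to 3′ on the gene's strand from 250 bases before to 50 bases after a RefSeq start on GRCm38.p6, the build also called mm10. The positions are chr1:135836084-135836383 (+), chr7:46715627-46715926 (-), chr6:55336049-55336348 (+), chr15:101266596-101266895 (+) and chr4:48045055-48045354 (+), and Tnnt2 has a further RefSeq start not shown. Capitals mark exact matches on either strand to the letters AGATAA for GATA factors, AGGTGT for T-box factors, AAAGGTCA for the NR4A element called NBRE or TGACGT for the cyclic AMP element called CRE. A MEF2 consensus was searched as well, and no motif overlapped another in what is printed.
Tnnt2: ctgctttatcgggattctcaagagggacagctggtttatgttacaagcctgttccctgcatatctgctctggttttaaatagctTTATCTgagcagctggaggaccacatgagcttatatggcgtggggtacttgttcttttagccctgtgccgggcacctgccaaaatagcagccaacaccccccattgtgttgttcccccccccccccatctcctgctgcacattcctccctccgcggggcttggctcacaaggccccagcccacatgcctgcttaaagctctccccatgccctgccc
Saa3: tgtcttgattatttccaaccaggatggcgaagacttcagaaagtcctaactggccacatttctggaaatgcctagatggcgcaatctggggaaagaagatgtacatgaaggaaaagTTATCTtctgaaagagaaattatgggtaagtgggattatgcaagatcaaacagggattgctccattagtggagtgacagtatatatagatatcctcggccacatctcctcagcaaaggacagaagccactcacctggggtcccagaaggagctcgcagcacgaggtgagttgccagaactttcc
Aqp1: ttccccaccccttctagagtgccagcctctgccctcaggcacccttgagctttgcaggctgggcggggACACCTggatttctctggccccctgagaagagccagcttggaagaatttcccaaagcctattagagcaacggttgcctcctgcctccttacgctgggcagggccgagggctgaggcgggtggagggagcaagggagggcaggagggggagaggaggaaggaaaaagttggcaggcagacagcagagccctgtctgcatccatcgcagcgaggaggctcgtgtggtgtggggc
Nr4a1: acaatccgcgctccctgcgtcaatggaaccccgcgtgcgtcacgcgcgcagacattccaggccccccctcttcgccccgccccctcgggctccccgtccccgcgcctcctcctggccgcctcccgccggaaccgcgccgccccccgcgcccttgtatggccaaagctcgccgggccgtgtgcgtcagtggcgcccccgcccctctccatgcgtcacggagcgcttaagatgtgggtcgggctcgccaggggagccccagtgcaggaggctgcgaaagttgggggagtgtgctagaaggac
Nr4a3: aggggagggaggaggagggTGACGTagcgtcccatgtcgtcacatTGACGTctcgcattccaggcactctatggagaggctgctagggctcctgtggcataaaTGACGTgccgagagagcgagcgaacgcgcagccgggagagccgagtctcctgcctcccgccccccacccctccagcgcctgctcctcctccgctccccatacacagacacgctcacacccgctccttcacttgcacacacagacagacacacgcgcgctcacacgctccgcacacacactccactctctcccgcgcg
The Tnnt2 and Saa3 regions each held 1 GATA match, on the reverse strand, starting 166 and 134 bases before the start. Aqp1 held 1 T-box match, 182 bases before its start, Nr4a3 held 3 CRE matches and Nr4a1 none of these letters. The further Tnnt2 region held no match either. RefSeq start regions existed for 9427 tested genes, 12163 regions in all, and for 238 of the 351 called genes. The GATA letters stood in 9.09% of 231 regions of genes called higher, 6.67% of 75 regions of genes called lower and 6.41% of all. For T-box the shares were 12.1%, 13.3% and 10.8%, for MEF2 1.73%, 2.67% and 1.71%, for NBRE 1.30%, 1.33% and 0.937%, and for CRE 6.06%, 10.7% and 10.8%. A match is a description of letters and not a site, and the shares were not tested.

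Most tested sarcomere genes rose at both ages, and a few did so by a larger ratio in aged cells from far lower starting levels. Cardiac troponin T, Tnnt2 (ENSMUSG00000026414, chromosome 1, 135836354 to 135852260), ties the troponin complex to tropomyosin. It measured 308 and 262 CPM in the LacZ neonatal libraries, 878 and 1270 in MGT neonatal, 4.11 and 2.48 in LacZ aged and 249 and 256 in MGT aged. No groups overlapped, and the MGT aged libraries lay just below the LacZ neonatal ones. Its response was 1.91 ± 0.14 in neonatal and 6.25 ± 0.20 in aged cells, a difference of 4.33 ± 0.25 (SE, adjusted p = 3e-09). For Tnnt2 the call held when any 1 library was left out (4.02 to 4.75 over the 8 fits). On the linear scale the order turned, with a gain of 789 CPM in neonatal and 249 CPM in aged cells. Desmin, Des (ENSMUSG00000026208, chromosome 1, 75360329 to 75368579), the muscle intermediate filament, measured 14.8 and 14.6 CPM in the LacZ neonatal libraries, 249 and 313 in MGT neonatal, 3.58 and 3.9 in LacZ aged and 243 and 261 in MGT aged. The MGT groups overlapped and the LacZ groups did not, and the difference in response of 1.81 ± 0.18 (SE, adjusted p = 5.3e-06) was a call that held when any 1 library was left out (1.65 to 1.98 over the 8 fits).

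Of 19 tested thin filament and Z-disc genes 13 rose in neonatal and 13 in aged cells, against 5.22% and 10.6% of all tested genes. Tnnt2 and Des were the 2 called for the difference, both higher (2.32% of all tested genes were). The list's median difference was 0.78, or 0.44 when genes without counts in a group take their bound, and leaving out MGT neonatal replicate 1 gave 4 calls. Of 9 tested thick filament and M-band genes 7 rose in neonatal and 5 in aged cells. For the difference 3 were called, all higher (2.32% of all tested genes were), with a median of 1.34, or 1.11 at the bound. Leaving out MGT neonatal replicate 2 gave 5 calls. The M-band protein gene Myom1 went from 19.4 to 57.4 CPM in neonatal and 2.8 to 24.8 in aged cells, a difference of 1.57 ± 0.27 (SE, adjusted p = 0.0016). The atrial light chain gene Myl7 had 1 count over both LacZ aged libraries against 436 under MGT, a ratio of 459 with a 95% counting interval of 81.9 to 18160. In neonatal cells its ratio was 6.91 (6.14 to 7.80), and the difference had an adjusted p of 0.00027. The myosin binding protein gene Mybpc3 had 0 counts in LacZ aged and 91 in MGT aged cells. That was 31.9-fold higher against a floor of 3 counts over the group, with a lower 95% counting limit of 25.4. In neonatal cells Mybpc3 was 6.76-fold higher with MGT (5.04 to 9.24). The difference had an adjusted p of 0.045. For Mybpc3 the call held without MGT neonatal replicate 2 and in no other such fit (5.50 to 6.21 over the 8 fits), and it was lost with voom weights. Those 2 fitted differences depend on the prior count and are not bounds. In all 9 thick filament genes the gain in CPM was smaller in aged cells, and in 15 of the 19 thin filament genes, against 5852 of the 11940 tested genes.

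Other muscle genes had large responses at both ages without a call for the difference. The actin-binding Xirp2 of the intercalated disc went from 0.776 to 71.3 CPM in neonatal and 0.436 to 231 in aged cells (difference 2.46 ± 0.81, adjusted p = 0.12), and the M-band gene Myom2 from 2.62 to 104 CPM in neonatal and 1.07 to 92.5 in aged cells (1.11 ± 0.38, adjusted p = 0.14). Among 18 calcium handling genes 11 rose in neonatal and 8 in aged cells, with a median difference of 0.09. The 1 call, lower (0.62% of all tested genes were), was for the L-type channel gene Cacna1c (-0.83 ± 0.22, adjusted p = 0.044). For Cacna1c the call held without LacZ aged replicate 1 and in no other such fit (-1.08 to -0.54 over the 8 fits), and it was lost with voom weights. None of 12 channel and gap junction genes was called in the edgeR fit or with any 1 library left out, and at most 1 in each direction under another setting. The pacemaker channel gene Hcn4 had 0 counts in LacZ aged and 173 in MGT aged cells. That was 60.7-fold higher against the floor of 3 counts, with a lower 95% counting limit of 48.8. Hcn4 rose 22.2-fold in neonatal cells (95% counting interval 13.7 to 38.5), with an adjusted p of 0.13 for the difference. Of 12 tested cardiac and muscle transcription factor genes 1 was called higher (2.32% of all tested genes were). This was Tbx3, a T-box repressor of the conduction system (2.78 to 5.1 CPM in neonatal and 2.1 to 9.94 in aged cells, difference 1.35 ± 0.34, adjusted p = 0.036). For Tbx3 the call held without LacZ aged replicate 1 or MGT aged replicate 1 and in no other such fit (0.99 to 1.86 over the 8 fits), and it was lost with voom weights. Among natriuretic peptides, Nppa had 0 counts in LacZ aged and 45 in MGT aged cells (15.8-fold higher against the floor, lower 95% counting limit 12.3). Nppa rose 3.84-fold in neonatal cells (3.21 to 4.63), with an adjusted p of 0.066 for the difference. Mature cardiomyocyte markers summed to 2.42 to 3.37 FPKM in LacZ neonatal, 4.57 to 4.60 in MGT neonatal, 0.12 to 0.40 in LacZ aged and 0.43 to 0.85 in MGT aged cells, and none of the 4 tested was called in the edgeR fit or under any other setting.

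**Figure D3:**
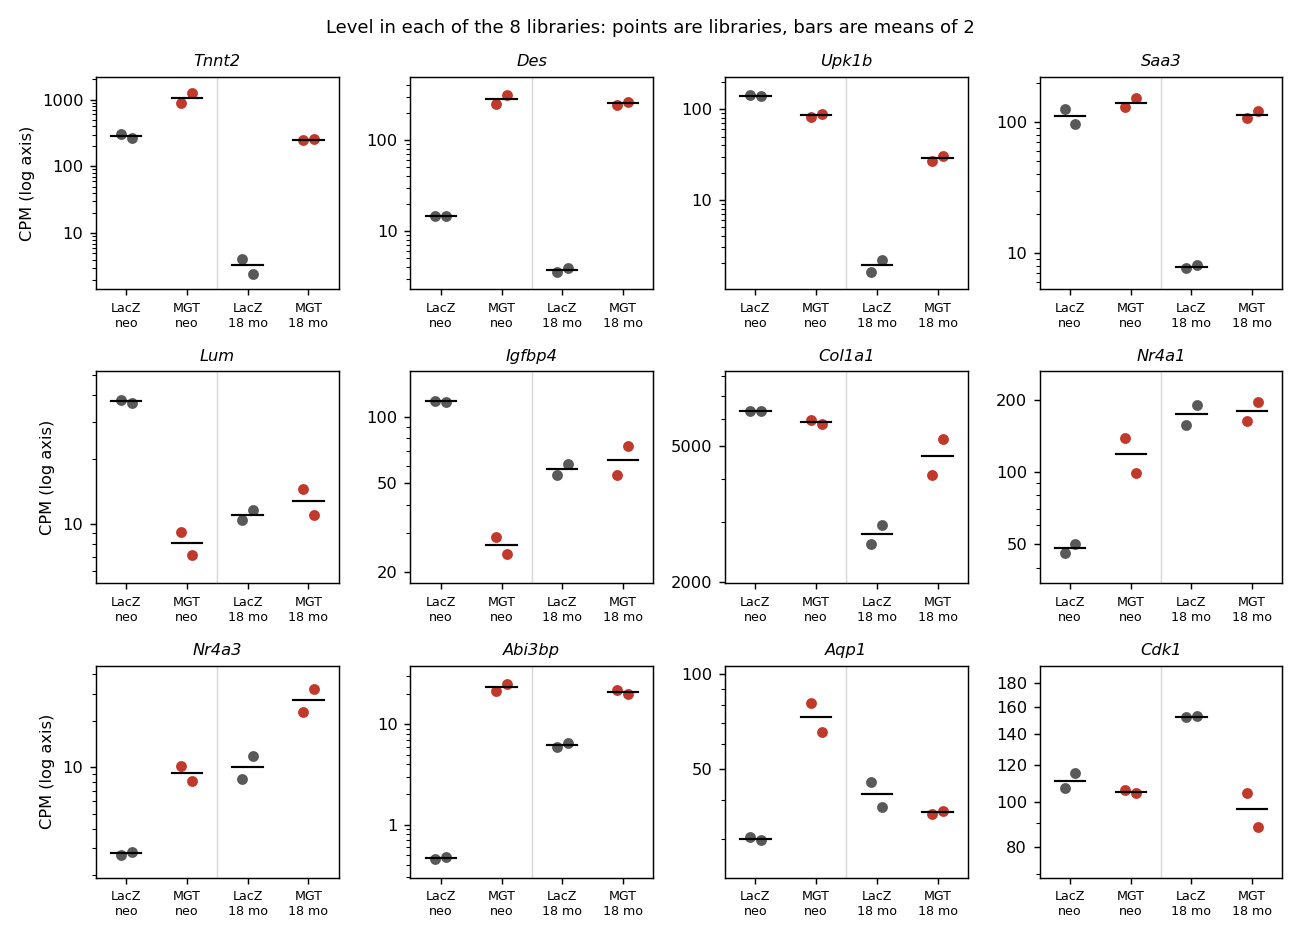
CPM on a log axis in each of the 8 libraries for 12 genes, with LacZ libraries in grey, MGT libraries in red and a bar at each mean of 2. Tnnt2, Upk1b and Saa3 start low in LacZ aged cells (1.62 to 8.05 CPM), while Nr4a1 and Cdk1 are higher under LacZ in aged than in neonatal cells.

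Genes of the mesothelium, the sheet that covers the heart, showed some of the widest differences. Of 11 tested mesothelial and epicardial genes 5 were called higher (2.32% of all tested genes were). The median difference was 1.56, and 8 of the 11 differences lay above 0. Under LacZ 9 of the 11 had lower mean CPM in aged than in neonatal cells. The most abundant member, Aldh1a2, did not, at 51.4 to 50.9 CPM in neonatal and 181 to 159.5 in aged cells. Its difference was -0.17 ± 0.14 (SE, adjusted p = 0.62), not called. In neonatal cells 7 fell and 2 rose with MGT, and in aged cells 4 rose and none fell. The plaque protein gene Upk1b (ENSMUSG00000049436, chromosome 16, 38773184 to 38800328) measured 144 and 139 CPM in the LacZ neonatal libraries, 83 and 89.2 in MGT neonatal, 1.62 and 2.17 in LacZ aged and 26.6 and 30.8 in MGT aged. No groups overlapped, and MGT narrowed the gap between ages from both sides. The response of Upk1b was -0.72 ± 0.10 (SE, adjusted p = 4.6e-05) in neonatal and 3.92 ± 0.17 (SE, adjusted p = 3.6e-12) in aged cells, a difference of 4.64 ± 0.20 (SE, adjusted p = 4.8e-11). For Upk1b the call held when any 1 library was left out (4.44 to 4.86 over the 8 fits). Keratin genes Krt7 (25.6 to 10.5 CPM in neonatal and 1.8 to 7.05 in aged cells, 3.26 ± 0.26, adjusted p = 2.4e-07) and Krt18 (9.71 to 11.4 CPM in neonatal and 0.215 to 2.86 in aged cells, 3.50 ± 0.59, adjusted p = 0.0015) were called, with the reservation that keratins form families with similar sequences. The leucine-rich repeat gene Lrrn4 dropped in neonatal cells and stayed low in aged ones, from 253 to 63.9 CPM in neonatal and 2.42 to 3.37 in aged cells, a difference of 2.47 ± 0.29 (SE, adjusted p = 3.1e-05). Upk3b, another plaque gene, lies outside the rule for named genes and was added as the fifth call (1.22 ± 0.26, adjusted p = 0.012). For Upk3b the call was lost without LacZ aged replicate 1 or MGT aged replicate 1 or 2 (1.14 to 1.30 over the 8 fits), and it was lost with voom weights. Summed FPKM of the list was 244 to 263 in LacZ neonatal, 147 to 150.3 in MGT neonatal, 99.8 to 112 in LacZ aged and 113 to 119 in MGT aged cells. Of the tested members Krt8 alone had 0 counts in a group. Whether the number of mesothelial cells moved with these results was not tested.

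Vessel markers had called differences in the higher direction too. Of 9 tested endothelial genes 2 were called higher (2.32% of all tested genes were), the median difference was 1.10 and all 9 differences were above 0. With MGT 1 rose and 1 fell in neonatal cells, and 4 rose and none fell in aged cells. Flt1, a receptor for vascular endothelial growth factor, went from 57.1 to 123 CPM in neonatal and 1.9 to 20.9 in aged cells (2.35 ± 0.23, adjusted p = 3.6e-06). The sialomucin gene Emcn went from 81.6 to 58.6 CPM in neonatal and 1.09 to 2.46 in aged cells (1.66 ± 0.33, adjusted p = 0.007). For Emcn the call was lost without LacZ aged replicate 1 or MGT aged replicate 1 (1.26 to 2.17 over the 8 fits), which left 1 endothelial call. The count was 1 to 3 when a library was left out and 2 to 6 under other settings. Endothelial markers summed to 75.6 to 82.6 FPKM in LacZ neonatal and 64.7 to 74.8 in MGT neonatal cells, against 4.73 to 6.77 in LacZ aged and 8.05 to 9.43 in MGT aged cells. Of 10 smooth muscle and pericyte genes 3 were called higher (2.32% of all tested genes were), Des among them. With MGT 4 rose in neonatal and 5 in aged cells, against 5.22% and 10.6% of all tested genes. The NG2 proteoglycan gene Cspg4, a pericyte marker, measured 121 and 131 CPM in the LacZ neonatal libraries, 218 and 238 in MGT neonatal, 5.21 and 4.09 in LacZ aged and 59.5 and 72.2 in MGT aged. Both LacZ aged libraries were far below the rest, no groups overlapped, and the difference was 2.96 ± 0.21 (SE, adjusted p = 5.6e-08). For Cspg4 the call held when any 1 library was left out (2.80 to 3.15 over the 8 fits). Mcam, an adhesion molecule of vessel walls, differed by 0.64 ± 0.15 (SE, adjusted p = 0.021). For Mcam the call held without MGT aged replicate 1 and in no other such fit (0.61 to 0.65 over the 8 fits), and it was lost with voom weights. The list summed to 1650 to 1671 FPKM in LacZ neonatal, 2076 to 2199 in MGT neonatal, 1103 to 1223 in LacZ aged and 1613 to 1711 in MGT aged cells. Of 11 macrophage genes the growth factor receptor gene Csf1r was called higher (0.62 ± 0.16, adjusted p = 0.041), against 2.32% of all tested genes. For Csf1r the call held without MGT aged replicate 1 and in no other such fit (0.49 to 0.73 over the 8 fits), and it was lost without scaling factors. The macrophage markers summed to 36.9 to 55.0 FPKM in the neonatal and 55.9 to 72.4 in the aged libraries. Of 3 tested Schwann cell genes Mbp was called higher (1.60 ± 0.35, adjusted p = 0.014), against 2.32% of all tested genes. The Schwann cell list summed to 2.60 to 5.29 FPKM in neonatal and 0.79 to 1.58 in aged libraries. For Mbp the call was lost without LacZ neonatal replicate 1, LacZ aged replicate 1 or MGT aged replicate 2 (1.16 to 1.93 over the 8 fits). The part of such cells in the results was not tested.

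**Figure D4:**
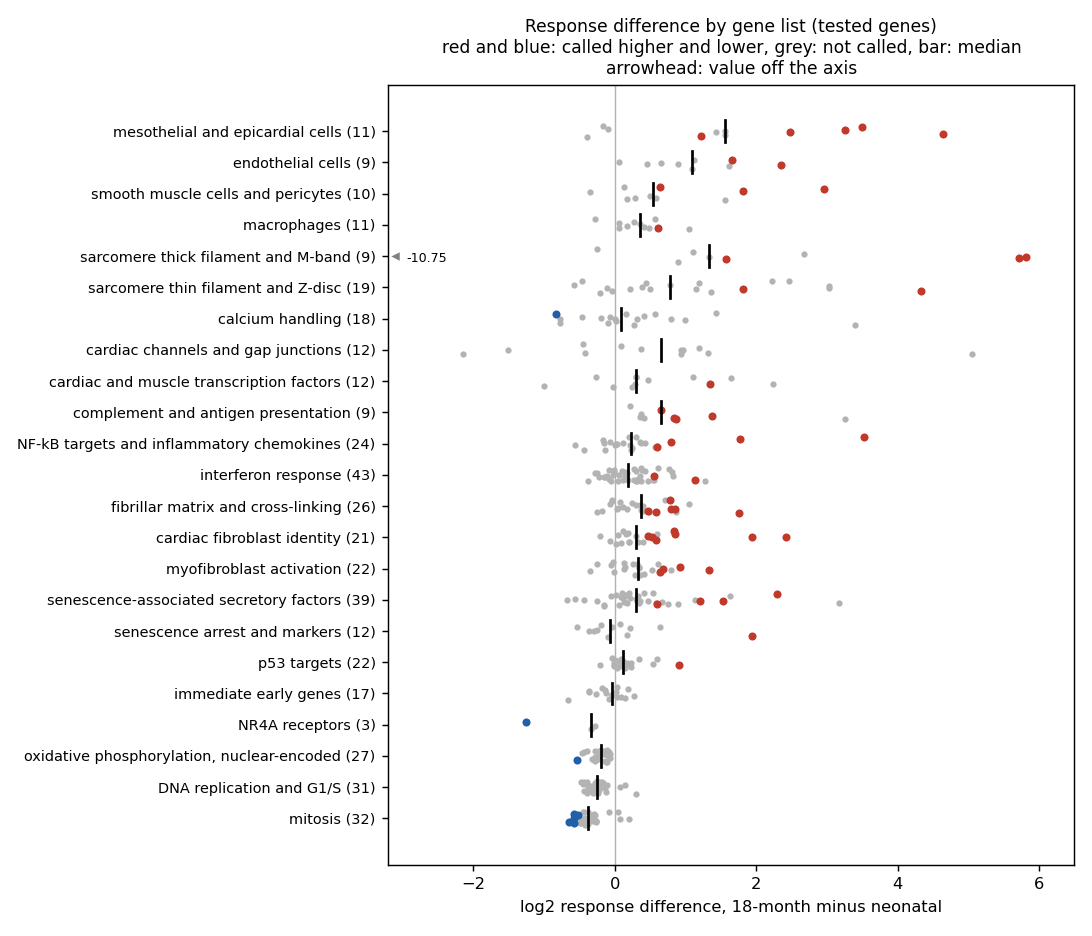
Each point is a tested gene of a list and its place on the x axis is the log2 response difference, 18-month minus neonatal. Red and blue points were called higher and lower, grey points were not called, the black bar is the list's median, and a thick filament gene with 0 counts in a group lies off the axis at -10.75, a fitted value that is no bound.

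Several inflammatory and complement genes had a higher response in aged cells, some from low LacZ levels there and some with a fall in neonatal cells. The acute-phase gene Saa3 (ENSMUSG00000040026, chromosome 7, 46711998 to 46715700), a target of NF-kB, measured 126 and 96.2 CPM in the LacZ neonatal libraries, 129 and 152 in MGT neonatal, 7.69 and 8.05 in LacZ aged and 107 and 121 in MGT aged. LacZ aged lay far below the other groups, and the LacZ neonatal and MGT aged libraries overlapped. Its response was 0.34 ± 0.14 (SE, adjusted p = 0.2) in neonatal and 3.86 ± 0.18 (SE, adjusted p = 1.8e-11) in aged cells, a difference of 3.52 ± 0.23 (SE, adjusted p = 2.3e-08). For Saa3 the call held when any 1 library was left out (3.31 to 3.70 over the 8 fits). Saa3 has close relatives with which it may share reads. Among 24 NF-kB targets and inflammatory chemokines 4 were called higher and none lower (median 0.22), against 2.32% and 0.62% of all tested genes. They were Saa3, the chemokine gene Ccl20 (25 to 14.9 CPM in neonatal and 4.33 to 8.81 in aged cells, 1.77 ± 0.19, adjusted p = 1.2e-05), the iron-binding lipocalin gene Lcn2 (64.5 to 39.7 CPM in neonatal and 26.8 to 28.7 in aged cells, 0.80 ± 0.12, adjusted p = 0.00082) and the adhesion molecule gene Vcam1 (1217 to 879 CPM in neonatal and 679 to 746 in aged cells, 0.60 ± 0.12, adjusted p = 0.0064). For Vcam1 the call was lost without LacZ aged replicate 1 (0.50 to 0.71 over the 8 fits). Up to 1 gene of the list was called lower when a library was left out and up to 2 under other settings.

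Of 9 tested complement and antigen presentation genes 4 were called higher (2.32% of all tested genes were), also when any 1 library was left out. All 9 differences were above 0, with a median of 0.65. In neonatal cells 5 of the 9 fell and none rose with MGT, and in aged cells 3 rose and 1 fell. The protease gene C1s1, which starts the classical pathway, measured 44 and 33.5 CPM in the LacZ neonatal libraries, 19.6 and 19.6 in MGT neonatal, 34.9 and 34.9 in LacZ aged and 46.4 and 45.4 in MGT aged. In neonatal cells both MGT libraries lay below both LacZ libraries, and in aged cells above. It differed by 1.38 ± 0.18 (SE, adjusted p = 8e-05). The central component C3 went from 128 to 103 CPM in neonatal and 494 to 717 in aged cells (0.84 ± 0.16, adjusted p = 0.0036) and Tapbp, a loader of class I molecules, from 224 to 208 CPM in neonatal and 71.1 to 104 in aged cells (0.65 ± 0.12, adjusted p = 0.0042). Of the 21 genes on this list, 10 were not analysed here and 2 had too few counts to be tested.

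Interferon response genes began far lower in aged cells. All 43 tested genes had lower mean CPM in LacZ aged than in LacZ neonatal cells, with summed FPKM of 1950 to 2042 in LacZ neonatal, 1345 to 1601 in MGT neonatal, 221 to 285 in LacZ aged and 204 to 226 in MGT aged cells. With MGT 28 fell in neonatal cells, while in aged cells 9 fell and 1 rose. The median difference was 0.18, and 2 of the 43 were called, both higher, against 2.32% of all tested genes called higher. The antiviral enzyme gene Rsad2 differed by 1.13 ± 0.28 (SE, adjusted p = 0.035). For Rsad2 the call held without LacZ neonatal replicate 1, LacZ aged replicate 2 or MGT neonatal replicate 1 and in no other such fit (0.74 to 1.64 over the 8 fits), and it was lost with DESeq2 and with voom. Ifit2, a sensor of foreign RNA, differed by 0.56 ± 0.14 (SE, adjusted p = 0.036). For Ifit2 the call held without LacZ neonatal replicate 1 and in no other such fit (0.40 to 0.69 over the 8 fits). The count was 0 without LacZ neonatal replicate 2, LacZ aged replicate 1, either MGT aged replicate or replicate 2 of MGT neonatal, and 1 to 6 under other settings, and at most 1 was called lower when a library was left out.

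**Figure D5:**
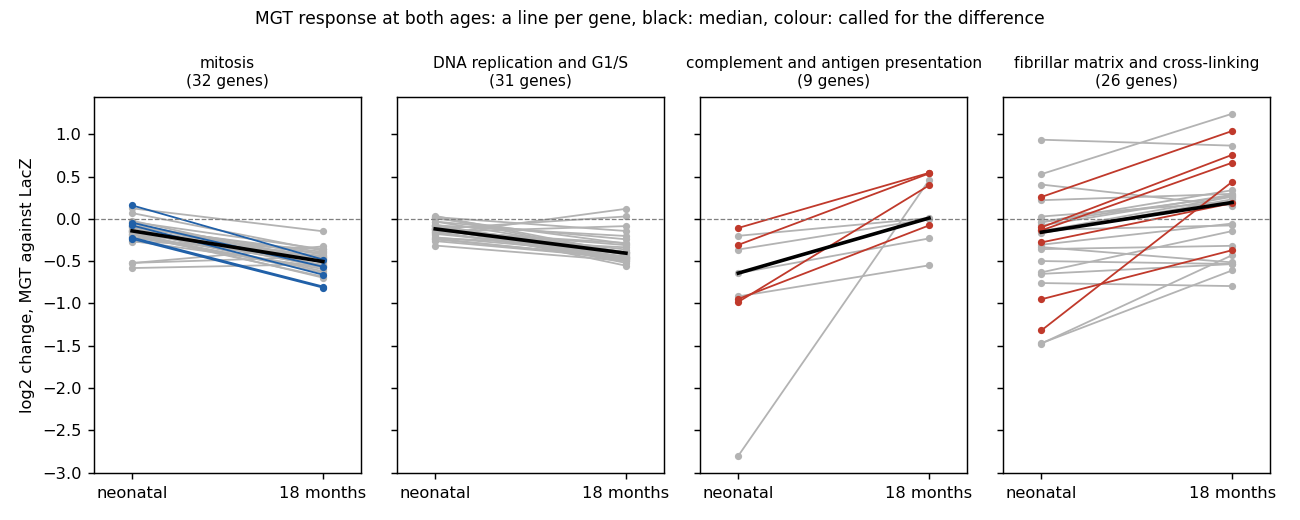
Each line joins the log2 change of 1 gene with MGT in neonatal and in 18-month cells for 4 lists, the black line is the list's median, and coloured lines are genes called for the difference. All but 3 of 32 mitosis and 3 of 31 DNA replication lines slope down and all 9 complement lines slope up, with 5, 0 and 4 genes called.

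More matrix genes fell than rose with MGT in neonatal cells, and more rose than fell in aged cells. Of 26 tested fibrillar matrix and cross-linking genes 12 fell and 3 rose in neonatal cells, and 5 fell and 9 rose in aged cells. Of all tested genes 4.02% fell and 5.22% rose in neonatal cells, and 8.25% fell and 10.6% rose in aged cells. The difference was called higher for 6 and lower for none (2.32% and 0.62% of all tested genes), with a median of 0.37. Col1a1 (ENSMUSG00000001506, chromosome 11, 94936224 to 94953042), the main chain of type I collagen, measured 6298 and 6308 CPM in the LacZ neonatal libraries, 5956 and 5801 in MGT neonatal, 2592 and 2933 in LacZ aged and 4100 and 5232 in MGT aged. No groups overlapped, and LacZ aged was the lowest. It did not change detectably in neonatal cells (-0.10 ± 0.10, adjusted p = 0.7) and rose in aged cells (0.76 ± 0.10, adjusted p = 2.7e-05), a difference of 0.86 ± 0.14 (SE, adjusted p = 0.0013). For Col1a1 the call held when any 1 library was left out (0.67 to 1.02 over the 8 fits). The lysyl oxidase gene Loxl2, which cross-links collagen, went from 848 to 771 CPM in neonatal and 233 to 369 in aged cells (0.80 ± 0.12, adjusted p = 0.00033), and elastin, Eln, from 51.4 to 20.6 CPM in neonatal and 1.55 to 2.11 in aged cells (1.76 ± 0.28, adjusted p = 0.001), both called when any 1 library was left out. The basement membrane collagen gene Col15a1 differed by 0.78 ± 0.16 (SE, adjusted p = 0.011). For Col15a1 the call was lost without LacZ neonatal replicate 2, LacZ aged replicate 1 or MGT aged replicate 2 (0.65 to 0.92 over the 8 fits). Col3a1, of fibrils rich in young tissue, differed by 0.58 ± 0.14 (SE, adjusted p = 0.034). For Col3a1 the call held without LacZ aged replicate 2 or MGT neonatal replicate 1 and in no other such fit (0.44 to 0.73 over the 8 fits). Col1a2, the partner chain of type I collagen, differed by 0.46 ± 0.11 (SE, adjusted p = 0.028). For Col1a2 the call held without LacZ aged replicate 2 or MGT aged replicate 1 and in no other such fit (0.38 to 0.54 over the 8 fits). The 6 calls became 3 without LacZ neonatal replicate 2, LacZ aged replicate 1 or MGT aged replicate 2, and were 6 to 11 under other settings.

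Of 21 fibroblast identity genes 7 were called higher (2.32% of all tested genes were), 3 of them collagens named above, with a median of 0.30. With MGT 9 fell and 2 rose in neonatal cells, and 6 fell and 4 rose in aged cells. The small proteoglycan gene Lum (ENSMUSG00000036446, chromosome 10, 97565128 to 97572703), a marker of matrix-making fibroblasts, measured 38.1 and 37 CPM in the LacZ neonatal libraries, 9.1 and 7.11 in MGT neonatal, 10.4 and 11.6 in LacZ aged and 14.6 and 10.9 in MGT aged. The LacZ neonatal libraries stood above all others and the LacZ and MGT aged libraries overlapped. Its response of -2.21 ± 0.14 (SE, adjusted p = 1.9e-09) in neonatal and 0.21 ± 0.15 (SE, adjusted p = 0.35) in aged cells gave a difference of 2.42 ± 0.20 (SE, adjusted p = 5.5e-07). For Lum the call held when any 1 library was left out (2.20 to 2.61 over the 8 fits). Dcn, a related proteoglycan that binds collagen and TGF-beta, went from 757 to 441 CPM in neonatal and 598 to 624 in aged cells (0.84 ± 0.14, adjusted p = 0.00094). The surface peptidase gene Dpp4, a marker of progenitor-type fibroblasts, fell at both ages, from 31.4 to 3.91 CPM in neonatal and 5.32 to 2.55 in aged cells (1.95 ± 0.28, adjusted p = 0.00031). Thy1, a surface glycoprotein outside the rule for named genes, was added as the seventh call (0.53 ± 0.12, adjusted p = 0.02). For Thy1 the call held without LacZ aged replicate 1 or MGT aged replicate 1 and in no other such fit (0.46 to 0.59 over the 8 fits). The 7 calls became 4 without either LacZ neonatal replicate and without replicate 2 of either MGT group.

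Among 22 myofibroblast genes, 14 rose in aged and 7 in neonatal cells. For the difference 4 were called higher (2.32% of all tested genes were). Cthrc1, a secreted protein of activated cardiac fibroblasts, measured 32.1 and 30.9 CPM in the LacZ neonatal libraries, 115 and 120.3 in MGT neonatal, 7.29 and 8.86 in LacZ aged and 78 and 73.7 in MGT aged, without overlap between groups, and differed by 1.33 ± 0.18 (SE, adjusted p = 0.00014). The ligand gene Tgfb3 (112 to 223 CPM in neonatal and 49.5 to 187 in aged cells) differed by 0.92 ± 0.14 (SE, adjusted p = 0.00048). Tgfb1 differed by 0.64 ± 0.15 (SE, adjusted p = 0.02). For Tgfb1 the call held without LacZ aged replicate 1, MGT aged replicate 1 or MGT neonatal replicate 1 and in no other such fit (0.48 to 0.78 over the 8 fits). Ltbp2, a protein of elastic fibres, differed by 0.69 ± 0.17 (SE, adjusted p = 0.032). For Ltbp2 the call held without MGT aged replicate 1 or MGT neonatal replicate 1 and in no other such fit (0.46 to 0.88 over the 8 fits). The 4 calls became 2 without either LacZ neonatal replicate, LacZ aged replicate 2 or MGT aged replicate 2, and were 4 to 7 under other settings. Acta2, smooth muscle actin, rose at both ages and its difference was 0.13 ± 0.11 (SE, adjusted p = 0.62). Ltbp1, which holds latent TGF-beta in the matrix, went the other way, from 122 to 233 CPM in neonatal and 233 to 287 in aged cells, with a lower response in aged cells (-0.63 ± 0.11, adjusted p = 0.0016).

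Senescence genes, which bear on the barrier named in the title, had a few called differences in the edgeR fit, all of them higher. Of 12 tested arrest genes and markers 1 was called higher, against 2.32% of all tested genes. It was Dpp4, which is also in the fibroblast list, and without MGT neonatal replicate 1 there were 2 such calls. The arrest gene Cdkn2a fell in neonatal cells (15.1 to 8.54 CPM in neonatal and 17.4 to 15.4 in aged cells) and differed by 0.64 ± 0.24 (SE, adjusted p = 0.19). Cdkn1a, the p53-driven cyclin kinase inhibitor, went from 619 to 684 CPM in neonatal and 583 to 681 in aged cells, a rise called in aged cells (adjusted p = 0.039), and differed by 0.08 ± 0.10 (SE, adjusted p = 0.78). Cdkn1b fell in aged cells (-0.65 ± 0.10) and differed by -0.54 ± 0.14 (SE, adjusted p = 0.051). Of 39 tested factors of the senescence-associated secretory set 4 were called higher and none lower (median 0.30), against 2.32% and 0.62% of all tested genes. A larger gain or smaller loss in CPM in aged cells was seen for 31 of the 39, against 6088 of the 11940 tested genes. The growth factor binding protein gene Igfbp4 (ENSMUSG00000017493, chromosome 11, 99041244 to 99054392) measured 118 and 116 CPM in the LacZ neonatal libraries, 28.6 and 23.9 in MGT neonatal, 54.7 and 60.9 in LacZ aged and 54.3 and 73.3 in MGT aged. LacZ neonatal was the highest group, MGT neonatal the lowest, and the aged groups overlapped. Its response of -2.15 ± 0.15 in neonatal and 0.14 ± 0.14 in aged cells gave a difference of 2.30 ± 0.21 (SE, adjusted p = 1.4e-06). For Igfbp4 the call held when any 1 library was left out (2.06 to 2.50 over the 8 fits). Igfbp3 (50.5 to 14.4 CPM in neonatal and 11.3 to 9.35 in aged cells, 1.53 ± 0.23, adjusted p = 0.00044) was called as well. The stromelysin gene Mmp3 was far higher in aged cells under both vectors, at 803 and 874 CPM in LacZ and 729.9 and 664 in MGT libraries against 32.4 and 29.8 and 12.4 and 9.88 in neonatal cells. The fall with MGT was called in neonatal cells (-1.48 ± 0.13, adjusted p = 2.1e-07) and not in aged cells (-0.27 ± 0.10, adjusted p = 0.079), and the difference was 1.21 ± 0.17 (SE, adjusted p = 0.0002). On the linear scale the order turned, with a change of -20 CPM in neonatal and -142 CPM in aged cells. The fourth call was Vcam1, described above. The secretory count was 4 or 5 when 1 library was left out and 4 to 9 under other settings, where up to 1 and up to 3 were called lower. Of 22 p53 targets Perp, a junction gene, was called higher (0.91 ± 0.20, adjusted p = 0.014), against 2.32% of all tested genes. For Perp the call held without LacZ aged replicate 1, MGT aged replicate 1 or MGT neonatal replicate 2 and in no other such fit (0.81 to 1.02 over the 8 fits).

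Cell cycle genes ran in the opposite direction. Of 32 tested mitosis genes none was called with MGT in neonatal cells and 28 fell in aged cells. Of all tested genes 4.02% fell in neonatal and 8.25% in aged cells. LacZ levels were higher in aged than in neonatal cells for all 32 mitosis genes. The median difference was -0.38, 29 of the 32 lay below 0, and 5 passed the test of the difference, all lower (0.62% of all tested genes were). Cdk1 (ENSMUSG00000019942, chromosome 10, 69335146 to 69352938), the kinase that starts mitosis, measured 107 and 115 CPM in the LacZ neonatal libraries, 106 and 104 in MGT neonatal, 152 and 152 in LacZ aged and 104 and 88.4 in MGT aged. Both LacZ aged libraries were above the other 6. Its response was -0.08 ± 0.09 (SE, adjusted p = 0.75) in neonatal and -0.66 ± 0.09 (SE, adjusted p = 3.2e-05) in aged cells, a difference of -0.58 ± 0.13 (SE, adjusted p = 0.013). For Cdk1 the call was lost without LacZ neonatal replicate 1, LacZ aged replicate 1 or 2 or MGT aged replicate 2 (-0.71 to -0.47 over the 8 fits). Cdc20, an activator of the anaphase ligase, went from 72.3 to 70.1 CPM in neonatal and 118 to 79.7 in aged cells (-0.52 ± 0.12, adjusted p = 0.022). For Cdc20 the call held without MGT neonatal replicate 2 and in no other such fit (-0.60 to -0.44 over the 8 fits). The kinesin gene Kif2c differed by -0.64 ± 0.15 (SE, adjusted p = 0.023). For Kif2c the call held without MGT neonatal replicate 2 and in no other such fit (-0.76 to -0.51 over the 8 fits). Cyclin B2, Ccnb2, differed by -0.58 ± 0.14 (SE, adjusted p = 0.028). For Ccnb2 the call held without MGT neonatal replicate 2 and in no other such fit (-0.69 to -0.46 over the 8 fits). Birc5, an inhibitor of cell death that works in the chromosomal passenger complex, lies outside the rule for named genes and was added as the fifth call (-0.58 ± 0.14, adjusted p = 0.03). For Birc5 the call held without LacZ neonatal replicate 2, MGT aged replicate 1 or MGT neonatal replicate 2 and in no other such fit (-0.67 to -0.48 over the 8 fits). The count of 5 was 0 without LacZ neonatal replicate 1, either LacZ aged replicate or MGT aged replicate 2, 1 without MGT neonatal replicate 1 and 2 without LacZ neonatal replicate 2, and 5 to 12 under other settings. Without MGT neonatal replicate 1, 2 mitosis genes were called higher. Of 31 DNA replication genes 1 fell in neonatal and 22 in aged cells, the median difference was -0.25 and none was called in the edgeR fit, at most 1 without a library and at most 7 lower and 1 higher under another setting. The helicase subunit gene Mcm4 was an example (117 to 115 CPM in neonatal and 148 to 112 in aged cells, -0.37 ± 0.11, adjusted p = 0.086).

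Nuclear-encoded genes of oxidative phosphorylation had a narrow shift in the same direction. All 27 tested had a difference below 0 (median -0.20, lowest -0.53, highest -0.07). With MGT 8 fell in aged and none in neonatal cells, against 8.25% and 4.02% of all tested genes. The cytochrome oxidase subunit gene Cox6c was called lower (112 to 117 CPM in neonatal and 124 to 89.7 in aged cells, -0.53 ± 0.14, adjusted p = 0.042), against 0.62% of all tested genes. For Cox6c the call held without MGT neonatal replicate 1 and in no other such fit (-0.62 to -0.44 over the 8 fits). The complex I subunit Ndufb8 (-0.43 ± 0.13, adjusted p = 0.078) was not. The summed FPKM of the list was 1473 to 1531 in the 4 neonatal libraries, 1690 to 1775 in LacZ aged and 1452 to 1512 in MGT aged. Without scaling factors the median difference of all tested genes moved from 0.02 to -0.01. Pdk4, a pyruvate dehydrogenase kinase, was the 1 of 19 fatty acid oxidation genes called, higher (2.32% of all tested genes were). It went from 12.6 to 22.6 CPM in neonatal and 16.1 to 65.7 in aged cells (1.17 ± 0.18, adjusted p = 0.00083). For Pdk4 the call held when any 1 library was left out (0.94 to 1.37 over the 8 fits).

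Among the genes with a lower response in aged cells, some rose at both ages by a smaller ratio in aged cells, as with the matrix protein gene Abi3bp (ENSMUSG00000035258, chromosome 16, 56477878 to 56690135), which measured 0.453 and 0.48 CPM in the LacZ neonatal libraries, 21.4 and 25.2 in MGT neonatal, 5.9 and 6.5 in LacZ aged and 21.8 and 20.1 in MGT aged. The MGT groups overlapped, and LacZ neonatal was the lowest. It rose by 5.62 ± 0.28 in neonatal and 1.75 ± 0.19 in aged cells, a difference of -3.86 ± 0.39 (SE, adjusted p = 4.9e-06). For Abi3bp the call held when any 1 library was left out (-3.98 to -3.75 over the 8 fits). The junctional adhesion gene Jam2, from 39.7 to 183 CPM in neonatal and 198 to 459 in aged cells, differed by -0.99 ± 0.12 (SE, adjusted p = 6.9e-05), though its gain in CPM was larger in aged cells (262 against 143). Others rose in neonatal cells with no call in aged cells. The water channel gene Aqp1 (ENSMUSG00000004655, chromosome 6, 55336432 to 55348555) measured 30.5 and 29.7 CPM in the LacZ neonatal libraries, 81 and 65.6 in MGT neonatal, 45.4 and 37.8 in LacZ aged and 36 and 36.8 in MGT aged. The MGT neonatal libraries were the highest, the groups did not overlap, and the responses of 1.28 ± 0.12 (SE, adjusted p = 2.7e-07) and -0.19 ± 0.12 (SE, adjusted p = 0.29) differed by -1.48 ± 0.17 (SE, adjusted p = 2e-05). For Aqp1 the call held when any 1 library was left out (-1.62 to -1.32 over the 8 fits). Fras1, a basement membrane gene, went from 1.1 to 12.8 CPM in neonatal and 0.946 to 1.35 in aged cells (-3.04 ± 0.54, adjusted p = 0.0025). For Fras1 the call was lost without LacZ aged replicate 1 (-3.46 to -2.42 over the 8 fits). The calcium channel regulator Rrad went from 2.88 to 16.7 CPM in neonatal and 3.38 to 4.34 in aged cells (-2.16 ± 0.43, adjusted p = 0.0065). For Rrad the call was lost without LacZ aged replicate 2 (-2.77 to -1.73 over the 8 fits). The signalling brake Rgs2 went from 2.17 to 5.21 CPM in neonatal and 16.2 to 12.9 in aged cells (-1.58 ± 0.32, adjusted p = 0.0066). For Rgs2 the call was lost without MGT aged replicate 2 (-1.73 to -1.45 over the 8 fits). The GTPase regulator Arhgap20 went from 1.8 to 4.33 CPM in neonatal and 19.5 to 16.1 in aged cells (-1.55 ± 0.28, adjusted p = 0.0034). For Arhgap20 the call held when any 1 library was left out (-1.97 to -1.21 over the 8 fits).

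The largest kind, 43 of 74, fell in aged cells with no call in neonatal cells. Dkk2, a secreted Wnt modulator, measured 8.04 and 7.95 CPM in the LacZ neonatal libraries, 7.92 and 7.35 in MGT neonatal, 8.96 and 8.05 in LacZ aged and 2.21 and 2.33 in MGT aged. The MGT aged libraries lay far below the other 6, which were close together in groups that did not overlap. Its response of -0.06 ± 0.18 in neonatal and -1.91 ± 0.22 in aged cells gave a difference of -1.84 ± 0.29 (SE, adjusted p = 0.00082). For Dkk2 the call held when any 1 library was left out (-1.92 to -1.76 over the 8 fits). S100a4, a calcium-binding protein of motile fibroblasts, went from 434 to 409 CPM in neonatal and 1400 to 934 in aged cells (-0.50 ± 0.11, adjusted p = 0.018). For S100a4 the call held without LacZ aged replicate 2 or MGT neonatal replicate 1 and in no other such fit (-0.55 to -0.44 over the 8 fits). Prrx1, a homeobox factor of mesenchymal cells, went from 331 to 366 CPM in neonatal and 834 to 669 in aged cells (-0.46 ± 0.12, adjusted p = 0.043). For Prrx1 the call held without MGT aged replicate 1 or MGT neonatal replicate 2 and in no other such fit (-0.55 to -0.38 over the 8 fits). The Wnt binding protein gene Sfrp1 fell at both ages, from 247 to 149 CPM in neonatal and 199 to 66.7 in aged cells, and differed by -0.84 ± 0.20 (SE, adjusted p = 0.026). For Sfrp1 the call held without LacZ aged replicate 1 or MGT neonatal replicate 2 and in no other such fit (-1.09 to -0.54 over the 8 fits), and DESeq2 did not give it. Among 25 Notch, Wnt and Hippo genes 2 were called in each direction, against 2.32% higher and 0.62% lower of all tested genes. Dkk2 and Sfrp1 were lower. The ligand genes Wnt5a (37.3 to 14.7 CPM in neonatal and 28.8 to 25.1 in aged cells, 1.14 ± 0.18, adjusted p = 0.00084) and Wnt2 (1.56 to 0.667 CPM in neonatal and 0.512 to 1.7 in aged cells, 2.94 ± 0.64, adjusted p = 0.013) were higher. For Wnt5a the call held when any 1 library was left out (0.93 to 1.32 over the 8 fits). For Wnt2 the call was lost without LacZ neonatal replicate 2, LacZ aged replicate 1, MGT aged replicate 2 or MGT neonatal replicate 2 (2.66 to 3.27 over the 8 fits). Where Wnt2 or Sfrp1 lost its call, 1 gene was called in that direction.

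Several genes at the top of the higher list belong to none of the groups above. The receptor phosphatase gene Ptprq measured 47.1 and 44.5 CPM in the LacZ neonatal libraries, 17 and 18.2 in MGT neonatal, 2.08 and 1.92 in LacZ aged and 17.1 and 13.5 in MGT aged. It fell with MGT in neonatal cells and rose in aged cells to where the MGT groups overlapped, a difference of 4.31 ± 0.29 (SE, adjusted p = 2.3e-08). The secreted matrix regulator Adamtsl2 went from 48 to 126 CPM in neonatal and 1.14 to 27.6 in aged cells (3.20 ± 0.30, adjusted p = 1.9e-06), with a gain of 77.6 CPM in neonatal and 26.4 in aged cells. Klhl30, of the kelch family of muscle, went from 6.43 to 38.8 CPM in neonatal and 0.264 to 29.1 in aged cells (4.13 ± 0.42, adjusted p = 6.2e-06). The germ cell helicase gene Ddx4 and the cytochrome P450 gene Cyp2s1 fell in neonatal cells (-3.63 ± 0.35 and -3.17 ± 0.26) and went from 8.38 to 0.667 CPM in neonatal and 1.21 to 1.2 in aged cells and from 18.3 to 2.02 CPM in neonatal and 0.454 to 1.1 in aged cells, with differences of 3.63 ± 0.56 (SE, adjusted p = 0.00069) and 4.45 ± 0.57 (SE, adjusted p = 8e-05). The maternally expressed long non-coding gene Meg3 went from 395 to 345 CPM in neonatal and 59.8 to 115 in aged cells (1.14 ± 0.19, adjusted p = 0.0012), and the imprinted zinc finger gene Plagl1 differed by 0.87 ± 0.21 (SE, adjusted p = 0.026). For Plagl1 the call held without MGT neonatal replicate 1 and in no other such fit (0.70 to 1.05 over the 8 fits), and it was lost with voom weights. Of 16 imprinted and fetal growth genes these 2 were called, both higher (2.32% of all tested genes were), with a median of 0.02.

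The response of adult cells, which shares no library with the aged or the neonatal response, is set beside these values without a test. Tnnt2 responded by 6.67 ± 0.20 in adult cells, Des by 6.09 ± 0.14, Upk1b by 5.32 ± 0.19 and Cspg4 by 3.73 ± 0.21, each nearer to the aged than to the neonatal response. For Saa3 it was 2.43 ± 0.15 and for Ptprq 2.81 ± 0.26. Nr4a1 (-0.13 ± 0.13, adjusted p = 0.55) had no call in adult cells, as in aged ones. Other genes departed from the aged response to varying degrees. Among them, Lum lay between the neonatal and the aged response and nearer to the aged one. Col1a1, C1s1 and Dkk2 in adult cells were nearer to the neonatal than to the aged response. The response of Col1a1 was 0.22 ± 0.10 (adjusted p = 0.13), of Lum -0.75 ± 0.13, of C1s1 -0.56 ± 0.12, of Dkk2 0.34 ± 0.25 (adjusted p = 0.39) and of Rsad2 -2.38 ± 0.17 in adult cells. Mitosis genes had a median response of -0.31 in adult, -0.51 in aged and -0.14 in neonatal cells, and complement genes -0.56, 0.01 and -0.64.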

How the data were processed

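RNA of 12 libraries, 6 groups of 2, was measured by sequencing. The authors' deposited table holds counts per gene and FPKM (fragments per kilobase of exon, scaled to library size) beside an exon length. Reads were trimmed with Trimmomatic 0.36 and counted with featureCounts of Subread 1.5.1 against the mouse build mm10, per the submitters' processing notes. Which aligner, annotation and strand setting were used is not given in the sources used here. Counts of overlapping and antisense genes and of near-identical copies are therefore uncertain. The table's gene identifiers end at ENSMUSG00000057457, and later ones are not analysed here.

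Library totals were recovered from count, FPKM and exon length (genes of at least 20 FPKM) as 14489848 to 18796715 fragments, of which the table holds 86.5% to 87.5%. CPM were computed from the counts with these totals and TMM factors of 0.988 to 1.01. The response difference was the interaction contrast of edgeR 4.0.16 (R 4.3.3), with 6 group means over 12 libraries, filterByExpr and the quasi-likelihood F-test with Benjamini-Hochberg adjustment over all 11940 tested genes, called at 0.05. The fit had 6 residual and 12.1 prior degrees of freedom and a biological coefficient of variation of 7.42%. Scripts were checked on simulated data. Folds against a group at 0 counts used a floor of 3 counts over the group, and counting intervals cover counting error only. A library's floor of 3 counts is 0.160 to 0.208 CPM.

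Named genes were, among the calls in each direction, the 12 of largest difference with at least 4 counts in every group, 2 CPM in 1 and responses that did not overlap between the ages, up to 6 with fewer counts, and the 8 most abundant. The 4 members of smallest p and the most abundant member of each list were added, with Mef2c, Gata4, Tbx5 and the NR4A genes in every case. One gene within this rule is not reported here. The comparison, the members and the gene lists were chosen with earlier results of these data known. Alternatives were other scaling, library sizes and filters, DESeq2 1.42.0, limma 3.58.1 (voom), 8 libraries, replicate blocks, another prior count and each library left out. Figures used Python 3.11.15, pandas 2.3.3 and matplotlib 3.10.9.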

Additional observations from a re-analysis of the deposited data

Results flagged for a closer look

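Each result here is one whose response to MGT differed between aged and neonatal cells in the edgeR test of that difference, at an adjusted p below 0.05, and the 351 genes called are the summary of that test. Values are log2 differences, aged minus neonatal, and their errors stand in the text or, for the genes not described there, in the closing observations. Among factor, receptor and muscle genes the difference was 2.02 for Tbx5, 1.35 for Tbx3, -1.26 for Nr4a1, 4.33 for Tnnt2, 1.81 for Des, 5.72 for Myl7, 5.82 for Mybpc3, 1.57 for Myom1, 4.13 for Klhl30 and -0.83 for Cacna1c. Among genes of the mesothelium, vessels, macrophages and Schwann cells it was 4.64 for Upk1b, 3.26 for Krt7, 3.50 for Krt18, 2.47 for Lrrn4, 2.35 for Flt1, 1.66 for Emcn, 2.96 for Cspg4, 0.64 for Mcam, 0.62 for Csf1r and 1.60 for Mbp. For inflammatory, complement and interferon genes the values were 3.52 for Saa3, 3.57 for Serpina3h, 1.77 for Ccl20, 0.80 for Lcn2, 0.60 for Vcam1, 1.38 for C1s1, 0.84 for C3, 0.65 for Tapbp, 1.13 for Rsad2 and 0.56 for Ifit2. Matrix, fibroblast and TGF-beta genes differed by the following amounts, namely 0.86 for Col1a1, 0.46 for Col1a2, 0.58 for Col3a1, 0.78 for Col15a1, 0.80 for Loxl2, 1.76 for Eln, 0.81 for Timp3, 2.42 for Lum, 0.84 for Dcn, 1.95 for Dpp4, 1.33 for Cthrc1, 0.92 for Tgfb3, 0.64 for Tgfb1, 0.69 for Ltbp2, -0.63 for Ltbp1, -3.86 for Abi3bp, -3.04 for Fras1, 3.20 for Adamtsl2 and -0.56 for Adamts1. Secreted and signalling genes had 2.30 for Igfbp4, 1.53 for Igfbp3, 1.21 for Mmp3, 1.14 for Wnt5a, 2.94 for Wnt2, -1.84 for Dkk2, -0.84 for Sfrp1, -1.78 for Dlk2, -1.30 for Gfra1, -1.58 for Rgs2, -2.16 for Rrad and -1.55 for Arhgap20. Cell cycle, metabolic, imprinted and p53 genes had -0.58 for Cdk1, -0.52 for Cdc20, -0.64 for Kif2c, -0.58 for Ccnb2, -0.53 for Cox6c, 1.17 for Pdk4, 0.69 for Pfkfb3, -1.30 for Gamt, 1.14 for Meg3, 0.87 for Plagl1 and 0.91 for Perp. The remaining named genes had -1.48 for Aqp1, 3.13 for Atp1a4, -0.66 for Clca3a1, 4.45 for Cyp2s1, 3.63 for Ddx4, -0.50 for Epb41l3, -0.99 for Jam2, 4.79 for Kank4, 4.96 for Lrrc2, 0.91 for Nes, -0.46 for Prrx1, 4.31 for Ptprq, -1.33 for Rab3c, -1.27 for Ripor2, -0.42 for Rps18, -0.50 for S100a4 and 3.50 for Sorcs1. The fitted values of Mybpc3, Myl7, Kank4, Lrrc2 and Sorcs1 rest on few or no counts in LacZ aged cells and depend on the prior count. No group had enough libraries for a test of single outlying samples.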

How the results depend on the processing

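All 351 calls kept their sign under every alternative run. The count was 635 (466 higher, 169 lower; 73.39% higher) with no filter on low counts and 669 (457 higher, 212 lower; 68.31% higher) with only the 8 compared libraries in the fit, against 351 and 78.92% as reported; both hold all 351, and the causes were not tested. It was 353 with DESeq2 size factors, 360 without scaling factors (73.33% higher), 351 with column sums, 375 by DESeq2 (330 shared) and 336 by voom (315 shared). Requiring a 2-fold difference left 152 higher and 14 lower. Leaving out 1 library gave 186 to 309 calls (163 to 244 higher, 23 to 65 lower), 1191 to 2166 for MGT in aged cells and 631 to 1064 in neonatal cells, all with fewer libraries in the fit. Those that moved were 1279 and 1217 without LacZ aged replicate 1 and 2, 1191 without MGT aged replicate 2, 634 and 643 without LacZ neonatal replicate 1 and 2, and 631 without MGT neonatal replicate 2. Whether replicate numbers pair the libraries was not settled. The correlation of same-numbered deviations between LacZ and MGT was 0.00 in neonatal, -0.11 in aged and 0.19 in adult cells over 8301 genes. A weak correlation cannot exclude a shared preparation. With the number as a replicate block over all libraries 343 genes were called (274 higher, 69 lower, 335 shared), and with a replicate block within each age 435 (332 higher, 103 lower, 346 shared). Over 183 named genes and 3294 alternative values, 227 lost and 85 gained a call, and the other 2982 were counted as unchanged. The latter include any change of sign in genes not called. None of the 90 named genes that were called changed sign. Counts over lists moved by over 1.5 times in 173 of 1156 alternatives, and list medians moved by more than their spread between replicates in 139 of 612. Depth limits genes with 3 counts or fewer in a group, 6 of the 277 higher calls.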

Other observations

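Several genes with a called response difference belong to no group described above. Nestin, Nes, an intermediate filament of progenitor cells and developing muscle, went from 511 to 760.2 CPM in neonatal and 131 to 366 in aged cells (0.91 ± 0.16, adjusted p = 0.0026). For Nes the call held when any 1 library was left out (0.71 to 1.15 over the 8 fits). Timp3, an inhibitor of matrix proteases, went from 801 to 688 CPM in neonatal and 231 to 348 in aged cells (0.81 ± 0.21, adjusted p = 0.041). For Timp3 the call held without LacZ aged replicate 2 or MGT neonatal replicate 1 and in no other such fit (0.66 to 0.97 over the 8 fits), and DESeq2 did not give it. The serpin gene Serpina3h went from 24.8 to 45.8 CPM in neonatal and 0.275 to 6.04 in aged cells (3.57 ± 0.44, adjusted p = 5.5e-05), and it may share reads with the other genes of its cluster. The sodium pump subunit gene Atp1a4, known from sperm, went from 1.21 to 2.07 CPM in neonatal and 0.151 to 2.33 in aged cells (3.13 ± 0.67, adjusted p = 0.012). For Atp1a4 the call was lost without LacZ neonatal replicate 1 or LacZ aged replicate 1 or 2 (2.83 to 3.48 over the 8 fits). Levels of 3 further genes were at or near 0 in LacZ aged cells. Kank4, of a family that links adhesions to the cell cortex, had 3 counts over the LacZ aged and 360 over the MGT aged libraries, a ratio of 126 (95% counting interval 42.9 to 615), and 4.24 (3.34 to 5.42) in neonatal cells. For Lrrc2, a leucine-rich repeat gene, the aged ratio was 60.0 (16.2 to 501), and for the sorting receptor gene Sorcs1 it was 7.89 (1.83 to 71.1). For Sorcs1 the call held without LacZ aged replicate 2 or MGT neonatal replicate 2 and in no other such fit (2.54 to 6.67 over the 8 fits), and DESeq2 did not give it.

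Among lower responses, the EGF-like gene Dlk2 went from 0.981 to 2.88 CPM in neonatal and 5.26 to 4.44 in aged cells (-1.78 ± 0.42, adjusted p = 0.022). For Dlk2 the call held without LacZ neonatal replicate 2, LacZ aged replicate 1 or MGT aged replicate 2 and in no other such fit (-2.20 to -1.47 over the 8 fits). The GDNF receptor gene Gfra1 went from 1.57 to 2.44 CPM in neonatal and 12.3 to 7.74 in aged cells (-1.30 ± 0.28, adjusted p = 0.011). For Gfra1 the call was lost without LacZ neonatal replicate 1 or 2 (-1.35 to -1.26 over the 8 fits). The creatine synthesis gene Gamt went from 5.8 to 5.34 CPM in neonatal and 5.76 to 2.14 in aged cells (-1.30 ± 0.34, adjusted p = 0.041). For Gamt the call held without MGT neonatal replicate 1 and in no other such fit (-1.62 to -0.91 over the 8 fits), and it was lost with voom weights. Rab3c, a vesicle GTPase, went from 4.88 to 3.36 CPM in neonatal and 6.7 to 1.82 in aged cells (-1.33 ± 0.33, adjusted p = 0.033). For Rab3c the call held without MGT aged replicate 1 or MGT neonatal replicate 1 and in no other such fit (-1.60 to -1.08 over the 8 fits), and it was lost with voom weights. Ripor2 differed by -1.27 ± 0.28 (SE, adjusted p = 0.014). For Ripor2 the call was lost without LacZ neonatal replicate 2, LacZ aged replicate 2, MGT aged replicate 2 or MGT neonatal replicate 1 (-1.46 to -1.06 over the 8 fits). The secreted protease gene Adamts1 went from 182 to 229.9 CPM in neonatal and 324 to 278 in aged cells (-0.56 ± 0.11, adjusted p = 0.0061). For Adamts1 the call was lost without LacZ neonatal replicate 2 or LacZ aged replicate 2 (-0.63 to -0.50 over the 8 fits). The channel regulator gene Clca3a1, one of a cluster of similar genes, differed by -0.66 ± 0.14 (SE, adjusted p = 0.01). For Clca3a1 the call was lost without LacZ neonatal replicate 2, LacZ aged replicate 2, MGT aged replicate 2 or MGT neonatal replicate 1 (-0.78 to -0.53 over the 8 fits). Epb41l3, a membrane skeleton gene, differed by -0.50 ± 0.11 (SE, adjusted p = 0.017). For Epb41l3 the call held without LacZ aged replicate 1 or MGT aged replicate 1 and in no other such fit (-0.53 to -0.46 over the 8 fits). The ribosomal protein gene Rps18, which has many processed copies, differed by -0.42 ± 0.11 (SE, adjusted p = 0.047). For Rps18 the call was lost when any 1 library was left out (-0.46 to -0.38 over the 8 fits).

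In other groups few genes or none were called. Of 17 tested glycolysis genes the regulator Pfkfb3 was called higher (0.69 ± 0.16, adjusted p = 0.02), against 2.32% of all tested genes. For Pfkfb3 the call held without LacZ aged replicate 1, MGT aged replicate 2 or MGT neonatal replicate 1 and in no other such fit (0.58 to 0.81 over the 8 fits). The glycolysis list had a median of -0.03. Of 19 fatty acid oxidation genes the median was -0.08. None of 23 tested chromatin genes named as barriers to reprogramming was called in the edgeR fit (median -0.03), at most 1 when a library was left out and at most 2 in a direction under another setting. None of 17 unfolded protein response genes (median -0.07) or 21 autophagy and lysosome genes (median 0.14) was called in the edgeR fit, when a library was left out or under another setting. None of 4 natriuretic and stress peptide genes was called in the edgeR fit, and at most 1 when a library was left out or under another setting. All 4 of these differences were above 0, with a median of 0.57.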
